A study of Arabidopsis thaliana with 39 samples.

Results

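Cadmium excess was examined in whole Col-0 wild type seedlings of Arabidopsis thaliana that were 15 days old at sampling. In the Cd+ group CdSO4 had been added at 10 µM to liquid MS medium of reduced strength for 24 h, and the control group C had received no added metal. Whether the C seedlings were also moved to liquid medium was not given in the sources used here, and if they were not, such a transfer and cadmium cannot be told apart. The members were all mature miRNA sequences counted in the 3 Cd+ and the 3 C small RNA libraries, which are 6 of the 39 libraries of the series. Every distinct sequence was taken once, so that 353 of the 353 sequences listed in the series were included, of which 288 had reads in these 6 libraries. Other 24 h treatments of seedlings of the same age and genotype were used where stated, namely Cu+ (10 µM CuSO4 added), Cu- (CuSO4 left out of the medium), S- (sulfates replaced by chlorides) and NaCl+ (sodium chloride added), with 3 libraries each. The labels name the 3 libraries of a group as biological replicates, and the number of seedlings pooled in a library was not given in the sources used here. The tables held miRNAs only, so neither the uptake of cadmium nor the organ from which a miRNA came was measured.

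Plant miRNAs are cut from hairpin precursors by DICER-LIKE proteins as a duplex of a 5p and a 3p strand. Usually one strand is loaded into ARGONAUTE1, where it guides cleavage or translational repression of mRNAs to which it pairs over almost its whole length, while the other strand (miRNA star) is mostly degraded. Cadmium is a toxic metal without a nutritional role in plants. It enters roots through transporters of essential metals, binds thiol groups, and is chelated by phytochelatins that plants make from the sulfur compound glutathione.

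The 12 mature sequences on which the results below turn are shown 5′ to 3′, as listed in the deposited tables, with the seed (bases 2 to 8 from the 5′ end) in capitals. The first 3 belong to related families and rose with cadmium, the next 4 are 3p strands that rose, and the last 5 are sequences that fell.
miR159a: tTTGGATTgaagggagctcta
miR159b-3p: tTTGGATTgaagggagctctt
miR319a,b: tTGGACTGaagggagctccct
miR156f-3p: gCTCACTCtctatccgtcacc
miR157a-3p,b-3p: gCTCTCTAgccttctgtcatc
miR396a-3p: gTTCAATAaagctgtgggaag
miR396b-3p: gCTCAAGAaagctgtgggaaa
miR8175: gATCCCCGgcaacggcgcca
miR400: tATGAGAGtattataagtcac
miR173-5p: tTCGCTTGcagagagaaatcac
miR824-5p: tAGACCATttgtgagaaggga
miR169a-5p: cAGCCAAGgatgacttgccga

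The 6 libraries were close in depth and quality. Sequencing had given 10330030 to 10728612 reads per library with a mapped share of 97.9 to 98.98%, and RNA integrity numbers were 8.4 to 8.9 in C and 8.3 to 9.1 in Cd+. Reads counted as miRNAs summed to 4299489, 3912553 and 4243043 in C and to 3349792, 4278159 and 4312955 in Cd+. The miRNA class as a whole took 41.2, 36.9 and 40.3% of the mapped reads in C and 33.1, 41.9 and 41.7% in Cd+, where Cd+ replicate 1 was the lowest of the 6 libraries. The means were 39.5 ± 2.29% and 38.9 ± 5.00% (SD, n = 3) with a difference of −0.582 percentage points (exact two-sided permutation p = 1, where 3 against 3 libraries cannot give less than 0.1).

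To find which miRNAs differed after cadmium, read counts of the 160 sequences with enough reads were compared by edgeR's quasi-likelihood test, and a sequence was called at an adjusted p (Benjamini-Hochberg over the 160) under 0.05. Levels are given as CPM (reads of a sequence over all miRNA reads of the library, in counts per 1000000), and fold changes as log2 of Cd+ over C. Cadmium was followed by 18 called sequences (11.2% of those tested), of which 10 rose (6.25%) and 8 fell (5%), while 41 (25.6%) had an unadjusted p under 0.05. With total miRNA reads as the scaling the split was 8 and 10. The risers were members of miR159, miR319, miR156, miR157 and miR396, with miR851-3p and miR843, and the sequences that fell came from 8 different families. In bulk samples such as these, fewer cells that make a miRNA and less of it per cell cannot be told apart.

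The 18 calls covered levels from 2.17 to 3291 CPM in C, and changes were modest, between 3.14-fold higher and 0.431 of the control mean. In 17 of the 18 the 3 Cd+ libraries lay outside the range of the 3 C libraries, against 28.7% of all 160 sequences tested. The calls were made on these same libraries, so this separation adds no support to them. The exception was miR159a, for which Cd+ replicate 1 (478.5 CPM) lay just below C replicate 2 (479.5 CPM). The median log2 fold change of all 160 was −0.01. The number of calls depended on single libraries. It was 2 without C replicate 1 and 2 without Cd+ replicate 2, and 24 without C replicate 2. In both fits with 2 calls the calls were miR157a-3p,b-3p and miR8175, which were called in each of the 6 fits that left out 1 library. The other 16 lost their call in at least 2 of these fits, yet all 18 kept their direction in every one. A joint fit of the 18 libraries of C, Cd+, Cu-, Cu+, S- and NaCl+ called only miR319a,b and miR400. In the NaCl+ libraries of that fit miRNAs took only 9.84 to 16.7% of the mapped reads. The part of this in the lost calls was not tested.

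**Figure D1:**
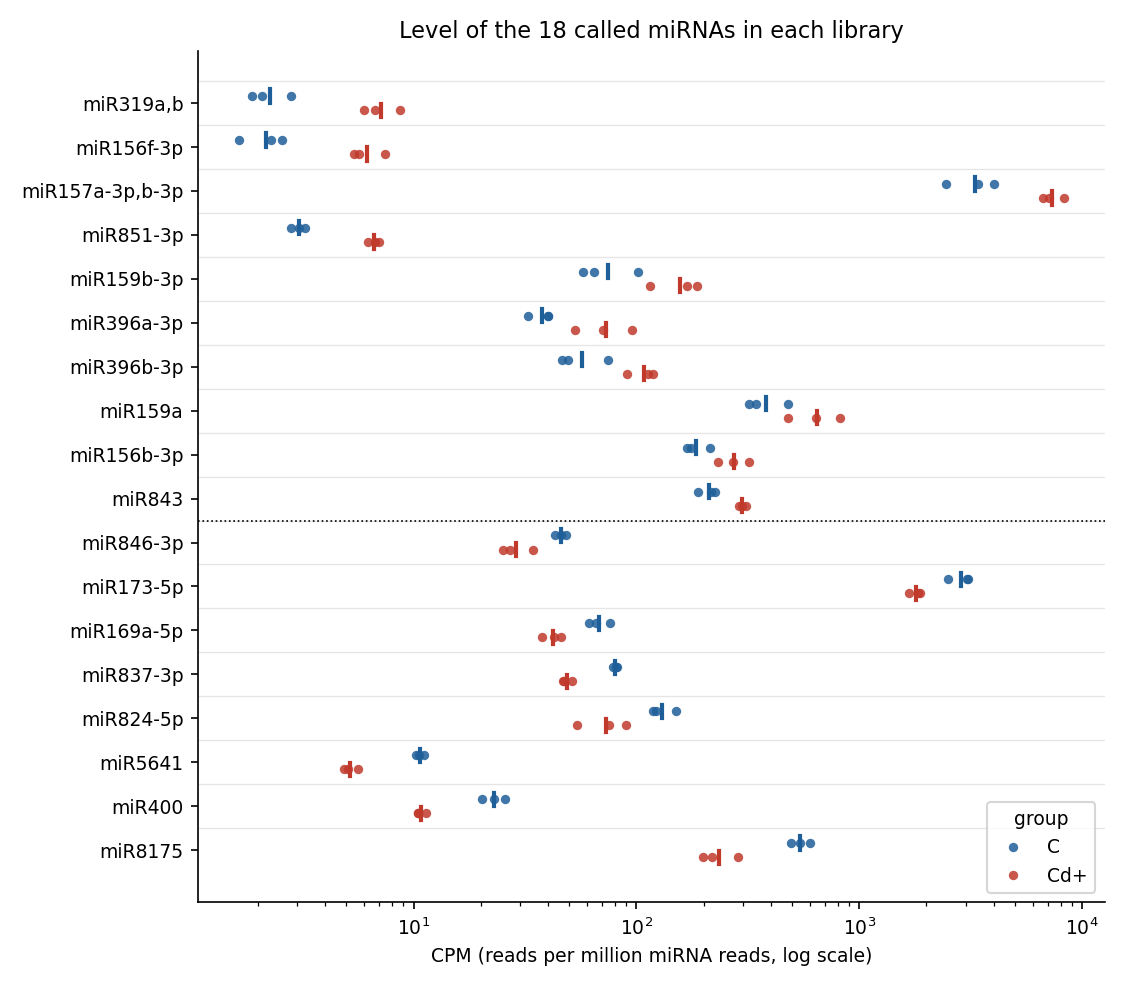
Level of the 18 called miRNAs in each of the 3 C (blue) and 3 Cd+ (red) libraries, in CPM on a log axis. Points are libraries and vertical bars are group means. The 10 sequences above the dotted line were higher and the 8 below it lower in Cd+. Points of the 2 groups lie apart in 17 of the 18 sequences, with miR159a as the exception.

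**Figure D2:**
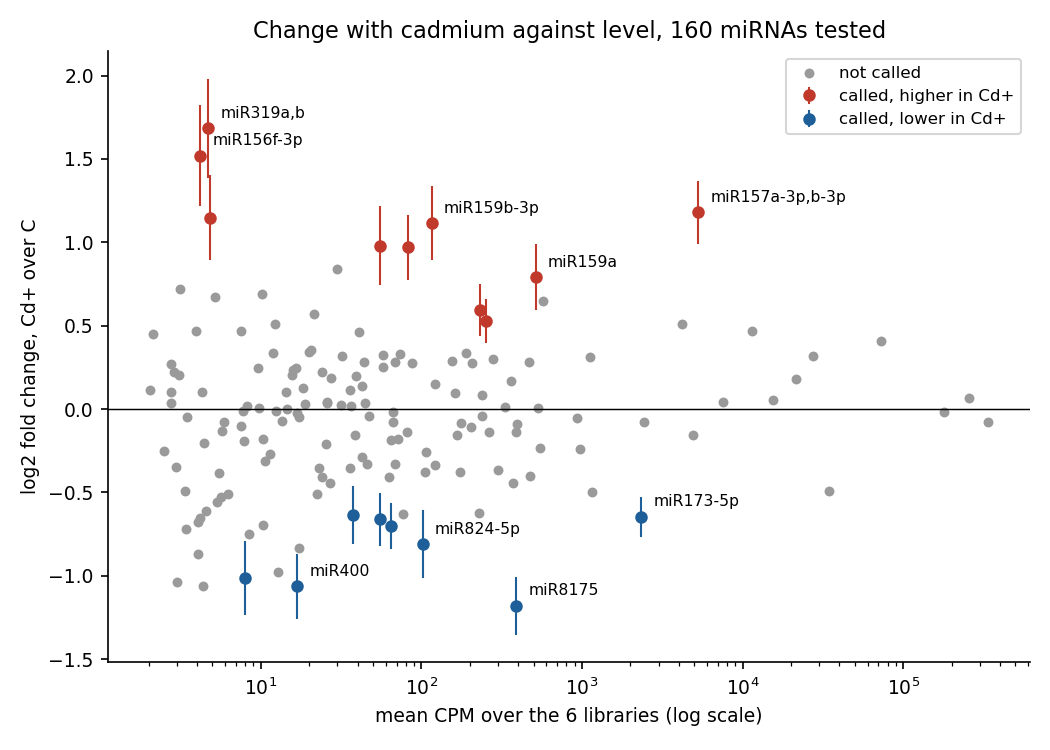
Log2 fold change of Cd+ over C against the mean CPM of the 6 libraries (log axis) for the 160 miRNAs tested. Coloured points were called, with bars for the SE, and grey points were not. Calls are spread over low and middle levels, and the 3 sequences with the most reads lie near 0.

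All 3 tested sequences of the miR159 and miR319 families rose. miR159 represses GAMYB-like transcription factors such as MYB33 and MYB65, and miR319 represses TCP transcription factors that limit cell proliferation in leaves. miR159a, from MIR159a on chromosome 1 (27713234 to 27713254, minus strand, TAIR10.1), is the most abundant of them. Its level was 344.9, 479.5 and 319.3 CPM in C and 478.5, 636.7 and 821.0 CPM in Cd+. Its log2 fold change was 0.79 (SE 0.20, edgeR adjusted p = 0.0335), with Cd+ replicate 3 the highest library.

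miR159b-3p, from MIR159b on chromosome 1 (6220813 to 6220833, plus strand), was at 64.7, 101 and 57.3 CPM in C and at 116, 168 and 187 CPM in Cd+. Every Cd+ library was above every C library, and the log2 fold change was 1.12 (SE 0.22, edgeR adjusted p = 0.0145). miR159a and miR159b-3p differ at 1 of 21 bases, so the trimming of unmatched reads could exchange reads between them. The rarest member, miR319a,b, had 9, 11 and 8 reads in C and 20, 37 and 29 in Cd+. That is 2.09, 2.81 and 1.89 CPM against 5.97, 8.65 and 6.72 CPM, with no overlap, and the largest log2 fold change of all calls, 1.68 (SE 0.30, edgeR adjusted p = 0.0145). It is encoded at MIR319a (chromosome 4, 12353109 to 12353129) and MIR319b (chromosome 5, 16660469 to 16660489).

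Read at 1 base of shift, miR319a,b differs from miR159a at 3 of 20 bases. Its mean level in C was 2.26 CPM beside 381 CPM of miR159a, so a few misassigned reads would be visible in it. Their part in the result was not tested. miR319c, which differs from miR319a,b at 1 of 21 bases, had 3, 8 and 4 reads in C and 0, 2 and 6 in Cd+ and was not tested. The second duplexes of the miR319 precursors, miR319a.2, miR319b.2 and miR319c.2, had log2 fold changes of 0.28 each (adjusted p = 0.31 to 0.373 by edgeR), and none of the 3 was called. Of these 3, miR319b.2 had the most reads, 428 ± 34.5 CPM in C and 510 ± 106 CPM in Cd+ (SD, n = 3). Leaving out a library could end the calls of the family. miR319a,b had an adjusted p of 0.0565 without C replicate 1 and 0.0532 without Cd+ replicate 2 in edgeR. For miR159b-3p it was 0.0703 without C replicate 1, 0.0544 without Cd+ replicate 2 and 0.054 without Cd+ replicate 3. For miR159a it was 0.127, 0.0868 and 0.133 without these same libraries and 0.0591 without C replicate 3.

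Among miR156 and miR157, which repress SPL transcription factors and hold plants in the juvenile phase, 3 of 12 tested sequences rose, and all 3 were 3p strands, opposite the strand that targets SPL mRNAs. miR157a-3p,b-3p was the strongest of them in reads. It was at 2436, 3414 and 4022 CPM in C and at 6648, 8246 and 7063 CPM in Cd+, a log2 fold change of 1.18 (SE 0.19, edgeR adjusted p = 0.0132). Its lowest Cd+ library was well above its highest C library. The 2 loci are MIR157a (24913205 to 24913225, minus strand) and MIR157b (24921175 to 24921195, plus strand) on chromosome 1.

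The partner strand miR157a-5p,b-5p,c-5p, the miRNA with the most reads, did not pass the test. It was at 338598, 364837 and 341733 CPM in C and 315766, 318036 and 339862 CPM in Cd+, with a log2 fold change of −0.08 (95% interval −0.23 to 0.08). The groups overlapped. Accordingly, for every 100 reads of the 5p strand there were 0.719, 0.936 and 1.18 reads of miR157a-3p,b-3p in C and 2.11, 2.59 and 2.08 in Cd+. Such a ratio within a library does not depend on the scaling between libraries, and here it was higher in all 3 Cd+ libraries.

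miR156f-3p had 11, 9 and 7 reads in C and 19, 23 and 32 in Cd+, which are 2.56, 2.30 and 1.65 CPM against 5.67, 5.38 and 7.42 CPM. The groups lay apart, with a log2 fold change of 1.52 (SE 0.30, edgeR adjusted p = 0.0145). Its locus (chromosome 5, 9136197 to 9136217) lies in MIR156f and in an exon of the lncRNA AT5G26146 on the same strand. miR156b-3p (chromosome 4, 15075004 to 15075026, in MIR156b and in the ncRNA AT4G30975) was at 169, 214 and 175 CPM in C and at 318.5, 233 and 272 CPM in Cd+. Its log2 fold change was 0.60 (SE 0.16, edgeR adjusted p = 0.0399), and Cd+ replicate 2 was close to C replicate 2.

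The main miR156 strand, miR156a-5p,b-5p,c-5p,d-5p,e,f-5p, had 254803 ± 12633 CPM in C and 262246 ± 24725 CPM in Cd+ (SD, n = 3) and a log2 fold change of 0.07 (95% interval −0.19 to 0.33). Other 3p strands of the family did not pass, with 0.57 for miR157c-3p, 0.47 for miR156d-3p, 0.04 for miR156a-3p and −0.14 for miR156c-3p. Log2 fold changes of the 5p-type sequences miR156g, miR156h and miR156j were −0.08, −0.37 and −0.23, and the median of all 12 was 0.05. miR157a-3p,b-3p stayed called without any single library. The call of miR156f-3p was lost without C replicate 1 (adjusted p = 0.0565), Cd+ replicate 2 (0.0532) or Cd+ replicate 3 (0.101) in edgeR. For miR156b-3p only the fit without C replicate 2 kept the call, with adjusted p-values of 0.0661 to 0.145 in the other 5 fits.

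miR396 showed the same division between strands. The 5p strands, which repress growth-regulating factors (GRF), did not pass, while both 3p strands rose. miR396a-3p (MIR396a, chromosome 2, 4142331 to 4142351) was at 40.0, 32.5 and 40.3 CPM in C and at 52.8, 95.4 and 70.9 CPM in Cd+. Its log2 fold change was 0.98 (SE 0.24, edgeR adjusted p = 0.0309), and Cd+ replicate 2 was the highest. miR396b-3p (MIR396b, chromosome 5, 13611904 to 13611924) was at 46.3, 74.4 and 49.5 CPM in C and at 113, 119 and 90.9 CPM in Cd+, a log2 fold change of 0.97 (SE 0.20, edgeR adjusted p = 0.0145). For both, no Cd+ library overlapped with C.

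The 5p strands had log2 fold changes of −0.38 for miR396a-5p (95% interval −0.76 to 0.00) and 0.15 for miR396b-5p (−0.21 to 0.52). Per 100 reads of miR396a-5p there were 30.3, 26.6 and 38.8 reads of the 3p strand in C and 54.8, 131 and 69.9 in Cd+. In Cd+ replicate 2 the 3p strand of miR396a thus had more reads than the 5p strand. The same ratio for miR396b was 43.8, 52.2 and 48.0 in C and 94.5, 108 and 60.0 in Cd+. For both hairpins all Cd+ libraries were higher than all C libraries. Without C replicate 1 the adjusted p by edgeR was 0.0703 for both 3p strands, and without Cd+ replicate 2 it was 0.0873 and 0.0595. miR396a-3p also lost its call without Cd+ replicate 3 (0.0861).

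Across all hairpins with both strands tested, 37 strand pairs, the ratio of 3p to 5p reads was higher in every Cd+ library than in every C library in 10 and lower in 1. Groups that do not overlap were found for 28.7% of all 160 single sequences, so the share of such pairs was close to that background. At least 1 strand was called in 8 pairs, and both strands in 0 pairs at an adjusted p under 0.05 in edgeR. Of 33 tested sequences with fewer reads than their partner, 5 rose and 0 fell, with a median log2 fold change of 0.20. Of 58 with more reads than their partner, 2 rose and 5 fell, with a median of 0.00. For sequences numbered as 3p strands, 7 of 49 rose and 2 fell, and for 5p strands 0 of 46 rose and 3 fell. Of all 160 tested, 6.25% rose and 5% fell. In some pairs without a called strand the ratio lay apart as well. Per 100 reads of miR472-5p there were 2.17, 2.26 and 2.61 reads of miR472-3p in C and 7.17, 3.15 and 4.22 in Cd+, with no overlap, although neither strand was called. Pairs that share a 5p sequence, such as miR156b-3p and miR156f-3p, are not independent of each other.

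**Figure D3:**
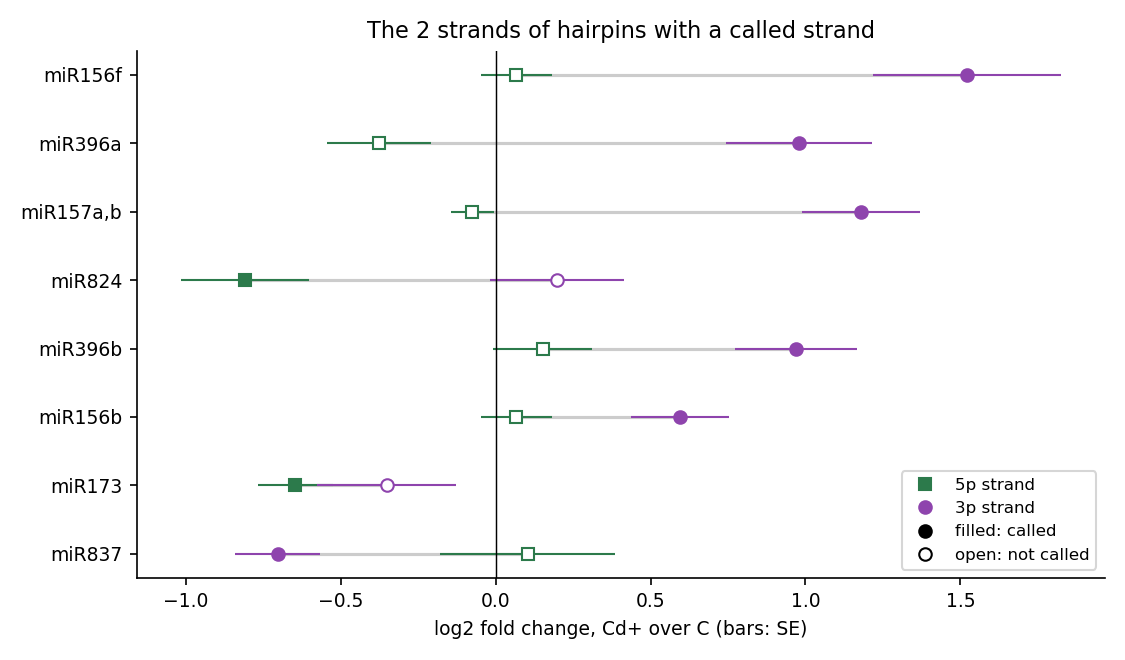
Log2 fold change of Cd+ over C for the 5p strand (squares) and 3p strand (circles) of the 8 hairpins with a called strand, with bars for the SE. Filled symbols were called. The 3p strand lies to the right of the 5p strand in 7 hairpins, and to the left in miR837.

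Of the sequences in none of the family lists, miR851-3p and miR843 rose. miR851-3p (MIR851, chromosome 3, 19659577 to 19659597) had 14, 12 and 12 reads in C and 21, 30 and 29 in Cd+, or 3.26, 3.07 and 2.83 CPM against 6.27, 7.01 and 6.72 CPM. Both groups were tight and lay apart, with a log2 fold change of 1.15 (SE 0.26, edgeR adjusted p = 0.022). miR843 (MIR843, chromosome 3, 17742147 to 17742167) rose from 190, 225 and 217 CPM to 296, 309.5 and 287 CPM, a log2 fold change of 0.53 (SE 0.13, edgeR adjusted p = 0.0335). It was the smallest change called. Neither call held when any single library was left out, with adjusted p-values of 0.066 to 0.113 for miR851-3p and 0.0692 to 0.158 for miR843.

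The strongest fall was that of miR8175, which no list held and for which no role is given here. Its level was 539, 600.1 and 494 CPM in C and 287, 217 and 199 CPM in Cd+, without overlap. The log2 fold change was −1.18 (SE 0.17, edgeR adjusted p = 0.0120), and the call held without any single library. The sequence matches the genome exactly at 2 places, in MIR8175 (chromosome 2, 3740938 to 3740957) and opposite an exon of AT3G44580 (chromosome 3, 16161749 to 16161768). The matches do not tell which of these places, or whether either, gave its reads, so an origin as a miRNA was not shown. Only exact matches to the genome were sought, so RNAs changed after transcription were not searched as a source of its reads.

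miR400, which targets mRNAs of pentatricopeptide repeat (PPR) proteins, fell from 25.6, 20.2 and 22.9 CPM to 10.4, 10.5 and 11.4 CPM. The Cd+ libraries were almost equal and all far below C, with a log2 fold change of −1.06 (SE 0.19, edgeR adjusted p = 0.0145). MIR400 (mature sequence on chromosome 1, 11785947 to 11785967) lies in an intron of the protein-coding gene AT1G32583 on the same strand. A second exact match (chromosome 1, 2014950 to 2014970) lies opposite an exon of AT1G06580. miR837-3p (chromosome 1, 6521053 to 6521073) also comes from an intron, that of the nitrate transporter gene NRT1.9 (AT1G18880). It fell from 82.1, 80.8 and 78.5 CPM to 47.5, 46.7 and 51.5 CPM, a log2 fold change of −0.70 (SE 0.14, edgeR adjusted p = 0.0145). Its groups were far apart, and the mRNAs of both host genes were not measured.

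The 5p strand of miR837 had 4.18 ± 0.734 CPM in C and 4.397 ± 0.496 CPM in Cd+ (SD, n = 3), a log2 fold change of 0.10 that did not pass. Leaving out Cd+ replicate 1, 2 or 3 or C replicate 1 gave edgeR adjusted p-values of 0.0512, 0.0532, 0.054 and 0.0565 for miR400. For miR837-3p they were 0.0574, 0.061, 0.0838 and 0.0918, and 0.0591 without C replicate 3. The list of PPR and NB-LRR regulators, in which miR400 was the only call, had 6 tested members and a median of −0.32.

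miR173-5p starts the production of trans-acting siRNAs (ta-siRNAs) from the TAS1 and TAS2 transcripts. It was at 3062, 3030 and 2498 CPM in C and at 1673, 1835 and 1872 CPM in Cd+ (MIR173, chromosome 3, 8236161 to 8236182). All Cd+ libraries were lower than all C libraries, with a log2 fold change of −0.65 (SE 0.12, edgeR adjusted p = 0.0145). Its partner miR173-3p went from 26.0 ± 5.86 to 20.1 ± 1.88 CPM (SD, n = 3), −0.35 on the log2 scale, which did not pass. Of the 4 tested ta-siRNA triggers it was the only call, and the median was 0.08. Its adjusted p in edgeR was 0.148 without C replicate 1 and 0.0574, 0.0544 and 0.0744 without Cd+ replicates 1, 2 and 3.

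miR824-5p, which targets the MADS-box gene AGL16, a regulator of stomatal development, was at 150, 122 and 118 CPM in C and at 54.0, 89.5 and 75.4 CPM in Cd+. The groups lay apart, with Cd+ replicate 1 the lowest, and the log2 fold change was −0.81 (SE 0.21, edgeR adjusted p = 0.0351). Its site (chromosome 4, 12625128 to 12625148) lies in MIR824 and opposite an exon of AT4G24413. Its partner miR824-3p did not pass, with 36.7 ± 4.61 CPM in C and 41.4 ± 12.4 CPM in Cd+ (SD, n = 3), a log2 fold change of 0.20. For miR824-5p the adjusted p in edgeR was 0.245 without C replicate 1 and 0.113, 0.0532 and 0.113 without Cd+ replicates 1, 2 and 3.

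miR169 represses NF-YA transcription factors, and its 5 tested sequences had log2 fold changes below 0, with a median of −0.36. So had 83 of all 160 sequences tested. miR169b-3p, nearest to 0, turned positive without a filter, with a replicate block and in 3 fits without 1 library, reaching 0.48 without C replicate 2. Only miR169a-5p was called (MIR169a, chromosome 3, 4359182 to 4359202). It was at 75.8, 65.7 and 61.5 CPM in C and 42.7, 37.6 and 45.9 CPM in Cd+, without overlap, a log2 fold change of −0.66 (SE 0.16, edgeR adjusted p = 0.0309). miR169d,e,f-5p,g-5p had −0.41, miR169h,i,j,k,l,m,n had −0.36, miR169b-5p,c had −0.33 and miR169b-3p had −0.02 on the log2 scale. miR169a-5p differs at 1 base from miR169b-5p,c and, after a shift by 1 base, at 1 of 20 from miR169d,e,f-5p,g-5p, so these members can exchange reads in the trimming step. The call of miR169a-5p held only without C replicate 2, with edgeR adjusted p-values of 0.0674 to 0.168 in the other 5 fits.

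miR846-3p, which targets mRNAs of jacalin lectins, fell from 43.3, 48.3 and 46.0 CPM to 25.1, 34.4 and 27.1 CPM (MIR846, chromosome 1, 22577662 to 22577682). No library overlapped, and the log2 fold change was −0.64 (SE 0.17, edgeR adjusted p = 0.0439). miR5641 (MIR5641, chromosome 5, 9023268 to 9023288) had 48, 40 and 45 reads in C and 17, 24 and 21 in Cd+. This is 11.2, 10.2 and 10.6 CPM against 5.07, 5.61 and 4.87 CPM, a log2 fold change of −1.01 (SE 0.22, edgeR adjusted p = 0.022), with both groups tight. When 1 library was left out, both calls held only without C replicate 2. In the other 5 fits the edgeR adjusted p was 0.0532 to 0.239 for miR846-3p and 0.0544 to 0.122 for miR5641. Other settings also ended them, DESeq2 and the replicate block for both, and RLE scaling, scaling by genome-mapped reads, no filter and the stricter filter for miR846-3p.

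Of the remaining family lists none had a call, but some lay to one side. Of all 160 sequences tested, 77 had log2 fold changes above 0 and 83 below. The 5 tested sequences of miR165 and miR166, which repress class III HD-ZIP genes of leaf polarity and vasculature, all had log2 fold changes above 0, with a median of 0.29. The main sequences of miR165 and miR166 are near-identical and can exchange reads in the trimming step, so these 5 are not independent. The main one, shared by miR166a-3p, miR166b-3p, miR166c, miR166d, miR166e-3p, miR166f and miR166g, was at 58505, 60434 and 68905 CPM in C and at 87830, 72984 and 84725 CPM in Cd+. These groups did not overlap, yet the log2 fold change of 0.41 (SE 0.12) had an adjusted p of 0.0628 in edgeR. It was under 0.05 with RLE scaling (0.0347), with total miRNA reads as the scaling (0.042) and without a filter (0.0478). Without C replicate 3 the edgeR adjusted p was 0.0457. In the other fits that left out a library it was above 0.05, from 0.0544 to 0.315.

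The 4 tested miRNAs that are made by DCL4 in place of DCL1 (miR822, miR839 and miR869) all had values below 0, with a median of −0.46. Of all 160 tested, 83 had values below 0. Among them miR822-5p was at 520.3, 596 and 514 CPM in C and at 391, 394 and 423 CPM in Cd+. Its log2 fold change was −0.40 (SE 0.12, edgeR adjusted p = 0.0628), and the groups lay apart. The miRNAs of the copper response (miR397, miR398, miR408 and miR857) repress copper proteins when copper is scarce. None of their 8 tested sequences was called, with a median of −0.14. The smallest p was that of miR397b, at 87.2, 77.4 and 117 CPM in C and 45.7, 65.2 and 69.6 CPM in Cd+, −0.63 on the log2 scale (SE 0.23, edgeR adjusted p = 0.126). Without C replicate 2 its adjusted p was 0.00625, and in the other fits that left out 1 library it was 0.108 to 0.375.

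miR395 represses sulfate transport and assimilation genes. Its 2 tested sequences were not called, and miR395a,d,e went from 2.39 ± 1.61 to 3.93 ± 0.916 CPM (SD, n = 3), 0.72 on the log2 scale with a 95% interval of −0.35 to 1.79. Its groups overlapped. miR168a-5p,b-5p, which represses ARGONAUTE1, was at 23004, 26657 and 24061 CPM in C and at 31251, 27025 and 31861 CPM in Cd+, 0.32 on the log2 scale (SE 0.10, edgeR adjusted p = 0.0719). These groups lay apart, though Cd+ replicate 2 was close to C replicate 2.

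In the other lists without a call, the sequence with the smallest p had a log2 fold change of 0.67 for auxin signalling (miR167c-3p, edgeR adjusted p = 0.179), −0.45 for DNA methylation (miR773a, 0.118), 0.32 for the phosphate response (miR399b,c-3p, 0.244), 0.31 for NAC (miR164c-5p, 0.249), 0.34 for AP2 (miR172e-3p, 0.325) and −0.41 for HAM (miR171c-5p, 0.572). These lists had 13, 2, 4, 2, 4 and 5 tested members. The flavonoid MYB regulators (miR828, miR858) had 0 of 3 sequences with enough reads to test. Sequences in none of the lists gave 2 higher and 4 lower calls among 69 tested, with a median of −0.02.

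**Figure D4:**
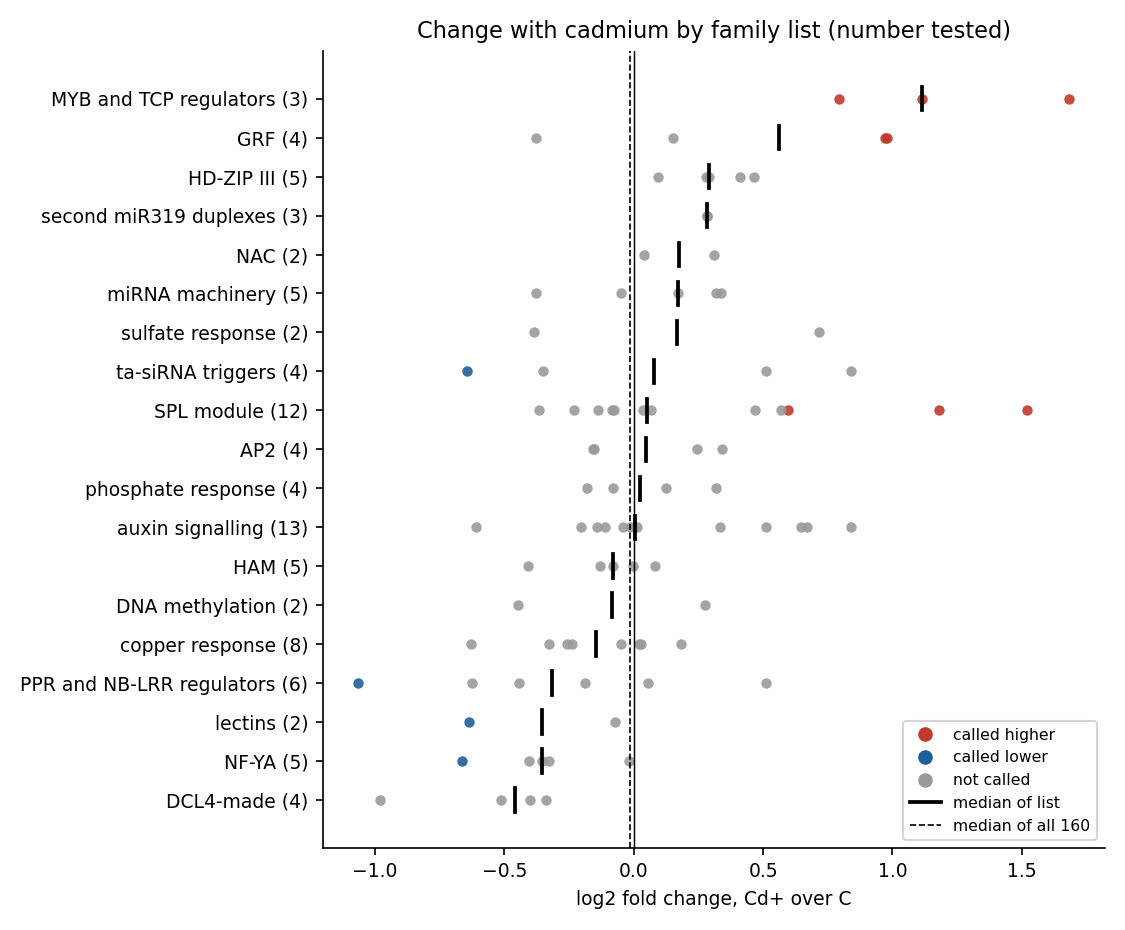
Log2 fold change of Cd+ over C for each tested miRNA, by list of families (number tested in parentheses). Red points were called higher, blue points lower and grey points were not called, short black bars are list medians, and the dashed line is the median of all 160. The miR159 and miR319 list lies furthest to the right, with a median of 1.12, and the DCL4-made list furthest to the left, with −0.46.

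None of the 5 most abundant miRNAs was called. The 5 sequences with the most reads held 88.0 to 89.6% of the miRNA reads in the C libraries and 87.1 to 88.0% in the Cd+ libraries. Besides the main miR156, miR157 and miR166 sequences, these were miR167a-5p,b (log2 fold change −0.02, 95% interval −0.23 to 0.20) and, in C, miR158a-3p. The last was at 43658, 37278 and 40740 CPM in C and at 27905, 32729 and 24414 CPM in Cd+, without overlap, −0.49 on the log2 scale (SE 0.15, edgeR adjusted p = 0.0686). It passed with total miRNA reads as the scaling (0.0239) and without C replicate 2 (0.00232). In the other fits that left out 1 library its edgeR adjusted p was 0.053 to 0.348.

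By length, 9 of the risers and 6 of those that fell had 21 nt, as did 121 of the 160 sequences tested. The 13 tested sequences of 20 nt included miR8175 and had a median log2 fold change of −0.16. By first base, 4 of 18 tested sequences that begin with G rose and 1 fell, with a median of 0.28. Over all 160 tested the shares were 6.25% higher and 5% lower. Those 4 are the 3p strands miR156f-3p, miR157a-3p,b-3p, miR396a-3p and miR396b-3p shown above, so this count is not independent of that of the 3p strands. Among the 93 that begin with T, 6 rose and 5 fell, with a median of −0.05. Sequences that share a seed with a called one had log2 fold changes of the same sign where tested. miR156d-3p (0.47) shares its seed with miR156f-3p, miR157c-3p (0.57) with miR157a-3p,b-3p, and miR5020a (−0.69) with miR5641, although none of the 3 was called.

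To ask how far the 18 changes were shared with other 24 h treatments, Cd+ was compared directly with Cu+, Cu- and S-, so that the C libraries did not enter. The 18 had been chosen by the difference of these same Cd+ libraries from C, which favours large differences from C among them. Against Cu-, 0 of 166 sequences were called by edgeR (5 at an unadjusted p under 0.05, 3.01%), DESeq2 called 0, and a one-way F test per sequence on CPM passed 4.51% of 288 at a p of 0.05 or less. Of the 18, only miR851-3p had an unadjusted p under 0.05 (0.67 on the log2 scale, edgeR adjusted p = 0.997), with 6.67 ± 0.375 CPM in Cd+ and 4.30 CPM in Cu-. The median size of the log2 difference between Cd+ and Cu- over the 18 was 0.13, beside 0.97 between Cd+ and C, by which they were chosen. The median size over all tested sequences was not computed. The Cd+ and Cu- libraries did not overlap in 3 of the 18, against 9.04% of all tested. In 15 of the 18 the 95% interval did not reach the difference found against C, as in 8 of the 18 against Cu+ and 3 against S-. The difference against C was taken here as fixed, without its own error. The median sizes were 0.42 against Cu+ and 0.56 against S-. miR8175 was at 234, 106 and 136 CPM in Cu-, a log2 difference of 0.62 (95% interval −0.02 to 1.26), and miR159b-3p had a mean of 182 CPM in Cu- beside 157 CPM in Cd+ (−0.16, −0.61 to 0.28).

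Against Cu+, the same dose of another metal sulfate, 1 of 162 sequences was called (0.617%), and it was none of the 18. miR394a,b-5p, which represses the F-box gene LCR, was at 13.4, 14.0 and 10.4 CPM in Cd+ and at 30.9, 27.3 and 25.8 CPM in Cu+, a log2 difference of −1.13 (SE 0.19, edgeR adjusted p = 0.0229). The groups lay far apart, while the C libraries had 11.2, 2.81 and 9.43 CPM. The call was lost without Cu+ replicate 1, without any 1 of the Cd+ libraries, in the joint fit and with a replicate block. Of the 18, 6 had an unadjusted p under 0.05, as had 15.4% of all tested sequences, and 0 were called. The libraries of the 2 groups did not overlap in 8 of the 18, against 25.3% of all tested. Those 6 were miR156b-3p, miR400, miR837-3p, miR843, miR846-3p and miR5641. miR400 was at 19.8, 16.6 and 17.2 CPM in Cu+, above all Cd+ libraries (−0.71, edgeR adjusted p = 0.158), and miR5641 at 7.66, 11.6 and 11.2 CPM (−0.95, 0.158). Members of the miR159 and miR319 list differed little between the 2 metals, by 0.05 for miR159a, 0.06 for miR159b-3p (95% interval −0.58 to 0.69) and −0.03 for miR319a,b (−0.66 to 0.60).

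Against S-, 0 of 159 sequences were called by edgeR (17 at an unadjusted p under 0.05, 10.7%) and 0 by DESeq2. All 18 differed from S- in the same direction as from C, with a median size of difference of 0.56, but none was called. Against Cu+ 16 of the 18 had that same direction, and against Cu- 11. The choice of the 18 by Cd+ against C favours this, and the share over all tested sequences was not computed. Libraries did not overlap in 10 of the 18, against 22% of all tested. The 5 with an unadjusted p under 0.05 were miR319a,b, miR396b-3p, miR400, miR837-3p and miR5641, with miR396b-3p at 65.2, 54.7 and 68.2 CPM in S- (0.82, edgeR adjusted p = 0.295). Without S- replicate 1, 4 sequences were called, namely miR159b-3p (0.94), miR396b-3p (0.85), miR8175 (−0.91) and miR395b,c,f (−1.43).

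Cu+ replicate 1, S- replicate 1 and, less far, Cu- replicate 2 stood apart in the miR156 and miR157 3p strands. miR157a-3p,b-3p was at 859 CPM in Cu+ replicate 1, beside 6534 and 4196 CPM in the other Cu+ libraries, and at 1083 CPM in S- replicate 1, beside 4951 and 6385 CPM. Cu- replicate 2 was low in the same strand, at 2599 CPM beside 6361 and 6226 CPM, and had 1.13 CPM of miR156d-3p. For miR156f-3p the values in Cu+ replicate 1 and S- replicate 1 were 0.225 and 0.752 CPM. The direct differences of these sequences were therefore wide, for miR157a-3p,b-3p 0.91 against Cu+ (95% interval −0.32 to 2.14) and 0.86 against S- (−0.42 to 2.14). miR160c-3p was low in the same libraries (501, 311 and 604 reads), as in Cu+ replicate 3 (502). C replicate 1 was the lowest C library in miR156d-3p (9 reads beside 34 and 36), miR390a-3p (47 beside 155 and 66) and miR157a-3p,b-3p. In miR156f-3p it was the highest. Without it the log2 fold change of Cd+ over C was 1.09 for miR157a-3p,b-3p and 1.74 for miR156f-3p.

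**Figure D5:**
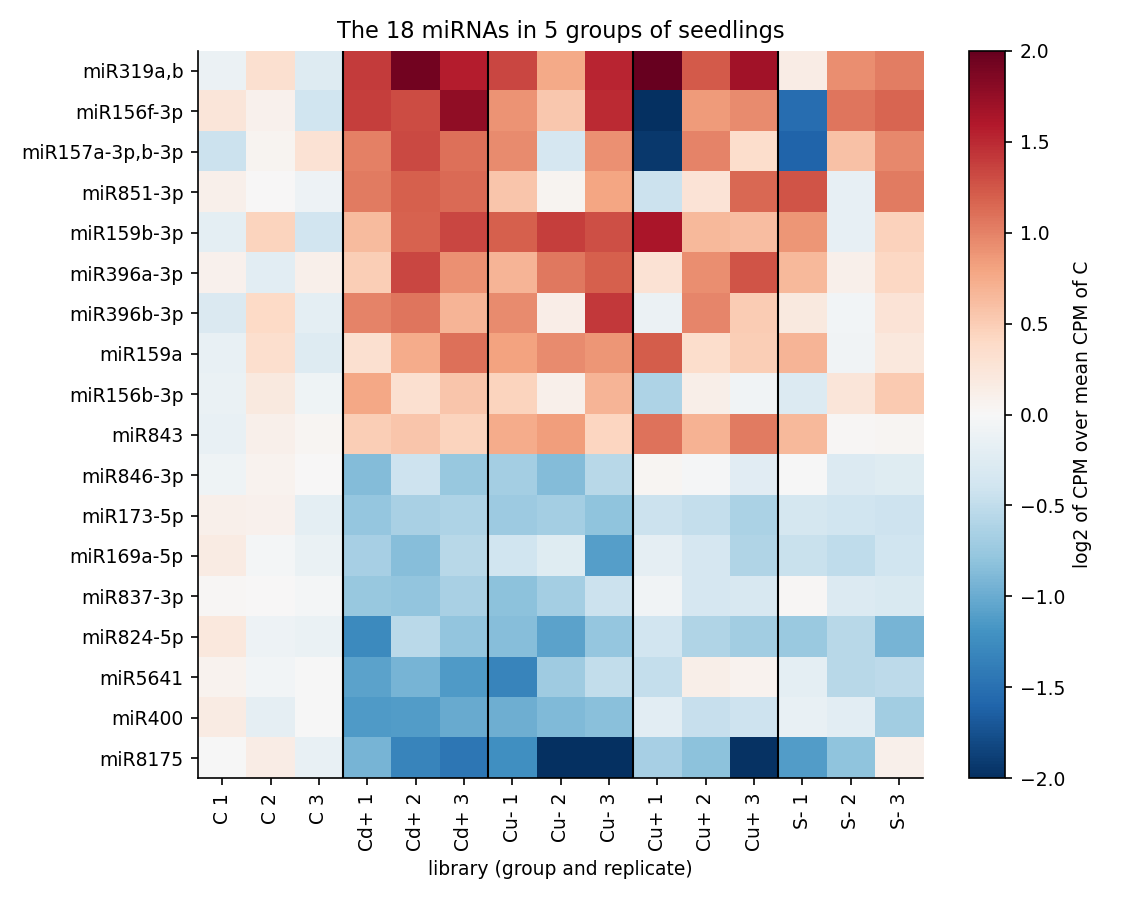
Level of the 18 called miRNAs in the 15 libraries of C, Cd+, Cu-, Cu+ and S-, as log2 of the CPM over the mean CPM of the 3 C libraries. Values beyond 2 in either direction have the end colour. The Cu- columns look most like those of Cd+, and the columns Cu+ 1 and S- 1 are dark blue for miR156f-3p and miR157a-3p,b-3p.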

How the data were processed

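For the deposited read counts, the authors discarded reads shorter than 17 nt, matched the others to mature miRNAs of miRBase 21 and 4 added sequences, and shortened reads without a match from either end until they could be tried again. IsomiRs therefore add to a count, and near-identical members can exchange reads. RNA integrity was deposited as a score per library. The submitters' notes name Bowtie 1.0.0 and TAIR10. The authors' pooled CPM, fold change and p columns were not used.

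CPM was recomputed from the counts. The test was edgeR's (4.0.16, R 4.3.3) quasi-likelihood test with TMM factors, Benjamini-Hochberg adjustment and the filterByExpr filter (minimum count 10). In simulated data it called 75.5% of 2-fold changes, 98.9% of 4-fold changes and 0.363% of unchanged sequences. Each sequence was drawn independently there, so shifts shared by many sequences of a library were not imitated. P-values measure the spread between 3 libraries per group. Positions come from exact matches to TAIR10.1. Alternatives were RLE, total miRNA and genome-mapped scaling, no or a stricter filter (at least 50 reads in 3 libraries), DESeq2 1.42.0, a joint fit, the one-way F test on CPM, a replicate block, and leaving out each library.

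The members and the family lists were chosen with earlier results of these data known. Named in the text were all called sequences, their partner strands and families, the smallest p of each list without a call, the 5 most abundant in C, and calls of the direct comparisons. miR472, miR5020a, miR395b,c,f, miR160c-3p and miR390a-3p were added after their values were seen.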

Additional observations from a re-analysis of the deposited data

Results flagged for a closer look

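One value drew attention by a difference between treatments under a common control. miR394a,b-5p differed between Cd+ and Cu+ by −1.13 on the log2 scale in the direct edgeR comparison (SE 0.19, adjusted p = 0.0229), with means of 12.6 CPM in Cd+, 28.0 CPM in Cu+ and 7.80 CPM in C. All 3 Cu+ libraries were above all 3 Cd+ libraries, but the call was lost in the joint fit, with a replicate block and in 4 of the 6 fits that left out 1 library. Groups of 3 libraries were too small to test for a single outlying library.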

How the results depend on the processing

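All 18 calls of Cd+ against C kept their direction under every alternative run, but fewer passed under several of them. Among refitted values of these sequences 155 stayed past the threshold and 111 did not. Instead of 18 calls (10 higher, 8 lower) there were 2 (1 and 1) in a joint fit with 18 libraries of 6 groups, 39 (16 and 23) with the one-way F test on CPM without adjustment, and 2 to 24 when 1 library was left out (1 to 10 higher, 1 to 14 lower). Scaling by genome-mapped reads ended the calls of miR156b-3p, miR159a, miR169a-5p, miR824-5p, miR843, miR846-3p and miR851-3p, and DESeq2 those of miR846-3p, miR851-3p and miR5641. Higher calls numbered 6 with scaling by genome-mapped reads and 6 with the stricter filter. Replicate numbers were not taken to pair libraries, since deviations of same-numbered C and Cd+ libraries correlated at −0.10, −0.22 and −0.07. Those of same-numbered Cu- and Cd+ libraries correlated at 0.41, 0.30 and −0.05, beside −0.39 to 0.16 for different numbers. A pairing of Cu- and Cd+ libraries therefore remains possible, and a replicate block against Cu- called 0 sequences. Against C a replicate block gave 8 calls (5 higher, 3 lower). Against Cu+, 1 call became 0 in the joint fit and with the block, 2 with genome-mapped reads (1 higher), 33 with the F test (11 higher, 22 lower) and 0 to 4 without 1 library (0 to 3 higher, 0 to 1 lower). The F test passed 13 against Cu- (4 higher, 9 lower) and 29 against S- (9 higher, 20 lower), where leaving out 1 library gave 0 to 4 (0 to 2 in each direction). Scaling by genome-mapped reads moved the median of all sequences by −0.19 against Cu- and −0.12 against Cu+. The miRNA share of all reads was 39.0% in C and 38.3% in Cd+. Sequences with no call and a value near 0 changed sign. Without 1 library the log2 fold change ranged from −0.16 to 0.41 for miR156a-3p, −0.0642 to 0.18 for miR156a-5p,b-5p,c-5p,d-5p,e,f-5p, −0.26 to 0.15 for miR156c-3p, −0.17 to 0.00867 for miR156g, −0.13 to 0.11 for miR167a-5p,b, −0.34 to 0.48 for miR169b-3p, −0.67 to 0.27 for miR171c-5p and −0.0555 to 0.35 for miR824-3p. miR156a-3p was also at −0.0303 with genome-mapped reads, miR167a-5p,b at 0.00604 with RLE and 0.00925 with DESeq2, and miR169b-3p at 0.00545 without a filter and 0.0503 with the block. The cause of these shifts was not tested. Calls of miR319a,b, miR156f-3p and miR851-3p rest on 7 to 37 reads per library.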
